A study of Mus musculus with 8 samples.

Results

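The 10 genes studied here are switched on by the tumour suppressor p53 and act in its feedback control and in cell cycle arrest. They were followed through single mouse embryonic stem (mES) cells, with and without CX-5461. The genes are Cdkn1a, Mdm2, Ccng1, Btg2, Sesn1, Sesn2, Zmat3, Phlda3, Trp53inp1 and Sfn. They were chosen by name, with earlier results of these data known, and all 10 are among the 54146 genes of both count tables. CX-5461 inhibits RNA polymerase I, the enzyme that transcribes the ribosomal RNA genes. The control group was untreated ICM-derived ES cells and the treated group was the same kind of cells given CX-5461, and both were grown for 2 days in LIF/2i medium on gelatin with mouse embryonic fibroblast (MEF) feeders. The dose and duration of CX-5461 for these libraries are not given in the sources used here. The labels list 4 samples per condition, but the study describes 1 biological replicate and each condition came as 1 table in which no barcode is tied to a sample. There was therefore 1 library per condition, with no replicate check and no test, and every interval given is a 95% interval of counting error only. Cells shared between the libraries could not be counted, because the barcodes are running numbers.

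p53 is a transcription factor that accumulates when cells are stressed, among other ways when ribosome production is disturbed and free ribosomal proteins bind MDM2. Mdm2 encodes the ubiquitin ligase that marks p53 for destruction and is itself a p53 target, which closes a negative feedback loop. Cdkn1a encodes p21, the inhibitor of cyclin-dependent kinases best known for p53-dependent arrest in G1, and mES cells are known for a weak G1 checkpoint.

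All 10 are protein-coding. In the GENCODE annotation of GRCm38 the genes on the plus strand are Cdkn1a at chr17:29090976-29100727, Sesn1 at chr10:41809935-41908424, Phlda3 at chr1:135766119-135769136 and Trp53inp1 at chr4:11156431-11174379. Those on the minus strand are Mdm2 at chr10:117688875-117710758, Ccng1 at chr11:40748552-40755311 and Btg2 at chr1:134075170-134079120, with Sesn2 at chr4:132492032-132510501, Zmat3 at chr3:32334792-32366014 and Sfn at chr4:133600556-133602168. Cdkn1a overlaps AC167363.2 on the other strand, and Sesn1 and Sesn2 overlap 9930024M15Rik and Gm12981 on their own strand. Whether the counting used strand is not given in the sources used here, and the authors' counts of ambiguous reads were 0 for the 10 genes.

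To show where p53 could read these genes, the 250 bases before each RefSeq transcription start (GRCm38.p6) were searched for the p53 half-site, a 10-base motif that reads the same on both strands and of which a full site has 2 copies. RefSeq windows were matched for 8 of the 10 genes (10 windows); Zmat3 and Trp53inp1 had none. A half-site stood in 4 of the 10 windows, against 7.13% of the 32851 windows of all genes. The 4 windows that hold one are given 5′ to 3′ on the gene's strand, with each half-site in capitals. The Cdkn1a window lies at chr17:29090729-29090978, plus strand, before the upstream of its 2 starts, and its half-sites begin 73 and 51 bases before that start. Only 0.259% of all windows held 2 or more. The Mdm2 window lies at chr10:117710759-117711008, minus strand, outside any annotated gene. The Ccng1 window lies at chr11:40755287-40755536, minus strand, and touches the gene's first GENCODE exon. The Sesn1 window lies at chr10:41887189-41887438, plus strand, within an intron of the longer Sesn1 transcript and before its internal start.
Cdkn1a: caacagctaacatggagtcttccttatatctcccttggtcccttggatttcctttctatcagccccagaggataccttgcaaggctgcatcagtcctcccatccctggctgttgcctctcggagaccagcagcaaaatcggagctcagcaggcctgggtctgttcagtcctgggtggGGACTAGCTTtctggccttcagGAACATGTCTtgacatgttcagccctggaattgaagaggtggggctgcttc
Mdm2: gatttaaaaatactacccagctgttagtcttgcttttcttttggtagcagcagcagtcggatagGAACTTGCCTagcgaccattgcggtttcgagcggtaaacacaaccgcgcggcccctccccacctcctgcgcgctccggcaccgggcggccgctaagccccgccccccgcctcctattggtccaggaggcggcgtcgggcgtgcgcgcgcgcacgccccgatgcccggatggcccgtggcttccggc
Ccng1: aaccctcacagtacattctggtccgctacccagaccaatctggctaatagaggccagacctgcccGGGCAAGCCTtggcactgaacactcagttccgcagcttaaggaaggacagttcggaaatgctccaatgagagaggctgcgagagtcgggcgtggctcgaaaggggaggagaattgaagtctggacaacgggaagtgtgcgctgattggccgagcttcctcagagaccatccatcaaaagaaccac
Sesn1: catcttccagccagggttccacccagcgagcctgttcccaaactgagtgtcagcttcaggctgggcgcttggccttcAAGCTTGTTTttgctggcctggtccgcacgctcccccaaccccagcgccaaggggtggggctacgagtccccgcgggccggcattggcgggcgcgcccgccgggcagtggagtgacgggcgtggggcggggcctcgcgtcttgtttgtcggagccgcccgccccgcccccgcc
A match is a description of the letters and not a measured site, and windows without one say nothing of p53 binding elsewhere in those genes.

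Cells were sorted into 2 classes by the RNA of 3 collagens. Barcodes with at least 500 UMIs (unique molecular identifiers, 1 per captured transcript) and at most a 0.2 mitochondrial fraction were kept, which left 3767 control and 4697 CX-5461 cells. Cells with at least 0.1% of UMIs on Col1a1, Col1a2 and Col3a1 were called feeders (141 control, 146 CX-5461) and the rest ES cells (3626 control, 4551 CX-5461). The ES cells had median depths of 12683 and 14075 UMIs, but 30.5% of control and 4.31% of CX-5461 ES cells held under 5000, and 21.2% and 10.6% had more than 10% mitochondrial UMIs. The labelled ES identity held for most of the class: all 9 ES markers were present, at a summed 7343 CPM (UMIs scaled to a common library total) in control and 7951 CPM in CX-5461, against 557 and 419 CPM in feeders. In feeders all 10 fibroblast markers outside the rule were present (1351 and 2342 CPM). Of the feeders, 130 of 141 in control and 112 of 146 in CX-5461 held only 0.1 to 0.5% of UMIs on the 3 collagens.

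A small set of cells in the ES class went against its name. In 85 control and 46 CX-5461 cells the 9 ES markers held under 0.2% of UMIs. In these 85 control cells the fibroblast markers summed to 721 CPM and 6 of 6 macrophage markers to 612 CPM. In the 46 CX-5461 cells the fibroblast markers summed to 527 CPM and 2 of 6 macrophage markers were present, at 19.2 CPM in all, with Ptprc, Tyrobp, C1qa and Lyz2 at 0. The median collagen share was 0.0372% in the 85 control cells and 0 in the 46 CX-5461 cells. The 46 also held much RNA of some genes of the 2-cell embryo. Only 3 of the 28 Zfp352 and 13 of the 40 Gm4340 UMIs of CX-5461 ES cells lay outside them, but 326 of the 376 Zscan4d UMIs did. The 2 sets therefore differed in content between the libraries. These cells carried much Cdkn1a, 1624 CPM in control and 1659 CPM in CX-5461, and in control 2119 of the 7779 Cdkn1a UMIs of the ES class came from them. Results are therefore given for all ES cells and for the 3541 control and 4505 CX-5461 ES cells with at least 0.2%, called marker-positive ES cells, a limit chosen after the data were seen.

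The 10 genes were higher in CX-5461 than in control ES cells, 8 of them at least 2-fold. In the background, 19% of 11935 measured genes (200 UMIs or more, the libraries summed) were at least 2-fold higher and 3.96% at least 2-fold lower. The median log2 ratio was 1.59 over the 10 genes and 0.35 over all genes. In marker-positive ES cells 8 of 10 were again at least 2-fold higher (background 19.7% of 11799 genes, with 3.55% at least 2-fold lower), with medians of 1.71 and 0.36. Because the median gene itself was higher, the genes were also read against it: 7 of 10 stood at least 2-fold over the median gene, against 12.3% of all genes. Since the 10 genes were chosen with earlier results of these data known, their counts against all genes, here and below, carry no weight as a test. The transcript of p53 itself, Trp53, stood at 253 CPM in control and 293 CPM in CX-5461 ES cells, a log2 ratio of 0.21 that lies below that of the median gene.

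Markers of other cell types were also higher in CX-5461 marker-positive ES cells. The 7 keratinocyte markers summed to 5.39 CPM in control (4 of 7 present, with Krt14, Krt15 and Dsg3 at 0) and 149 CPM in CX-5461 (6 of 7, with Dsg3 at 0). Most of both sums was Perp, itself a p53 target and listed again below, at 5.23 CPM in control and 109 CPM in CX-5461. The 6 macrophage markers summed to 6.77 CPM (6 of 6 present) and 27.0 CPM (5 of 6, with Ptprc at 0), the 4 endothelial markers to 0.779 and 11.5 CPM (2 of 4 in each, with Cdh5 and Emcn at 0), and the 7 primitive endoderm markers to 1.20 and 4.27 CPM (7 of 7 in each). Their part in the higher levels of the 10 genes was not tested.

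Among the arrest genes, Cdkn1a stood at 168 CPM (interval 165 to 172) in control and 530 CPM (524 to 535) in CX-5461 ES cells, a log2 ratio of 1.65 (1.62 to 1.69). In marker-positive ES cells the levels were 126 and 521 CPM, and the log2 ratio was 2.05, so leaving out the 85 and 46 cells lowered the control level and enlarged the ratio. Btg2, which encodes an antiproliferative protein that recruits the mRNA deadenylation machinery, had the widest gap of the 10. It went from 20.5 CPM (19.2 to 21.9) in control to 168 CPM (165 to 171) in CX-5461, a log2 ratio of 3.03, and from 15.7 to 167 CPM in marker-positive ES cells, a log2 ratio of 3.41 (10.6-fold, 9.86 to 11.5). Sfn, which encodes 14-3-3 sigma, an arrest factor of the G2/M transition, stood at 17.5 and 50.5 CPM, a log2 ratio of 1.53 (1.42 to 1.64). Btg2 was at the 97.1th percentile of the log2 ratios of all genes in ES cells, Cdkn1a at the 91.1th and Sfn at the 89.7th.

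The feedback genes were higher by similar factors. Mdm2 stood at 37.6 CPM (35.8 to 39.4) in control and 131 CPM (129 to 134) in CX-5461 ES cells, a log2 ratio of 1.81 (1.73 to 1.88). Ccng1 encodes cyclin G1, which recruits a phosphatase to MDM2, and it stood at 89.2 CPM in control and 322 CPM in CX-5461, a log2 ratio of 1.85 (1.81 to 1.90). Phlda3, whose product blocks AKT at the membrane, stood at 96.7 and 309 CPM, a log2 ratio of 1.68 (1.63 to 1.72). Trp53inp1 encodes a stress protein that joins complexes modifying p53 and takes part in autophagy. It stood at 26.4 and 74.8 CPM, a log2 ratio of 1.504 (1.41 to 1.60). These 4 genes had log2 ratios of 1.99, 1.98, 1.77 and 1.57 in marker-positive ES cells, in the same order.

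The sestrins and Zmat3 moved least. Sestrins are stress proteins that restrain the growth kinase complex mTORC1. Sesn2 stood at 18.04 CPM in control and 36.4 CPM in CX-5461 ES cells, and its log2 ratio of 1.01 had an interval from 0.90 to 1.13 that spans the 2-fold limit. Sesn1 stood at 5.45 and 7.46 CPM, from 252 and 485 UMIs, with a log2 ratio of 0.45 (0.23 to 0.68) close to that of the median gene. Zmat3, which encodes an RNA-binding protein of the p53 pathway, stood at 20.3 and 34.9 CPM, a log2 ratio of 0.79 (0.68 to 0.90). Sesn2 with Sesn1 and Zmat3 are the genes that did not stand 2-fold over the median gene.

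**Figure D1:**
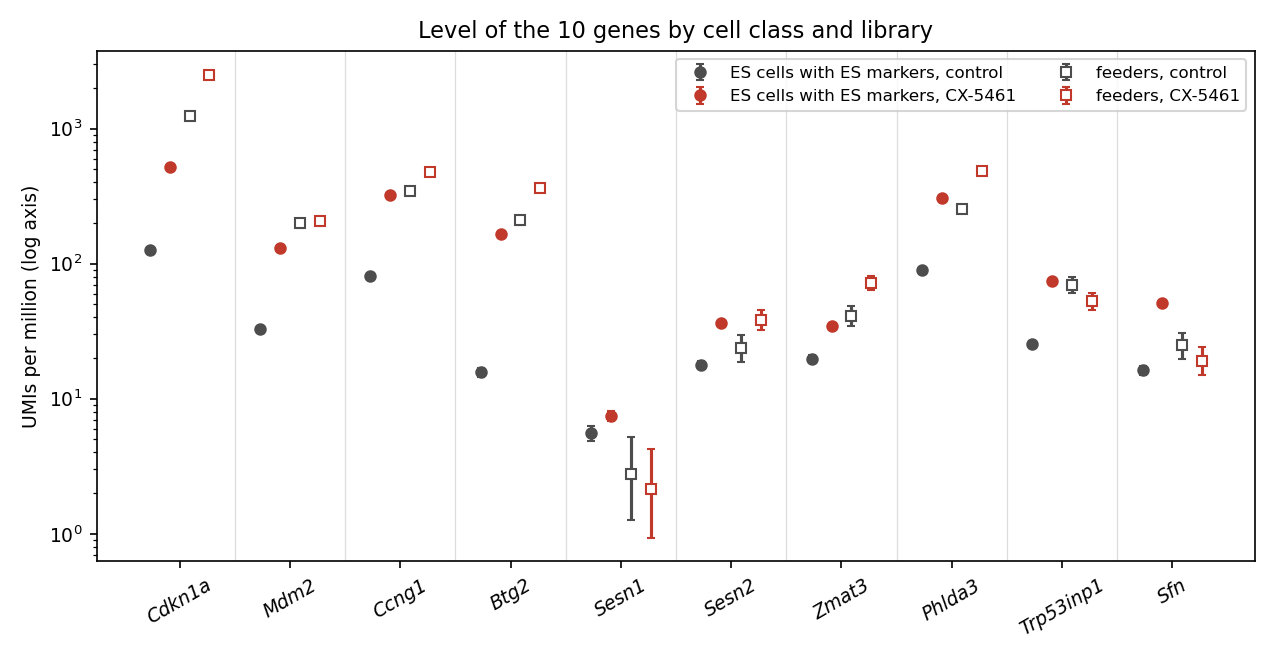
Level of each of the 10 genes in CPM on a log axis, in marker-positive ES cells (filled circles) and feeders (open squares) of the control (grey) and CX-5461 (red) libraries; bars are 95% exact Poisson intervals of the summed counts. In ES cells the red point lies above the grey one for every gene, and in feeders it lies below for Sesn1, Trp53inp1 and Sfn.

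The direction held within cells of like depth and like mitochondrial share. In each of 5 ranges of UMIs per cell and each of 4 ranges of mitochondrial share, 10 of 10 genes were higher in CX-5461 ES cells and 7 or 8 at least 2-fold. The share over all genes was not taken within these ranges, and over all ES cells it was 19% at least 2-fold higher. Some of the values lay at no change: for Sesn1 at a mitochondrial share of 0.05 to 0.1 the log2 ratio was 0.004, from 12 control and 56 CX-5461 UMIs. Over the depth ranges the log2 ratio of Cdkn1a lay between 1.48 in cells with 5000 to 10000 UMIs and 1.94 in cells with 10000 to 15000 UMIs, and over the mitochondrial ranges between 1.47 and 2.04. For Btg2 it was 3.73 in cells under 5000 UMIs, where it rests on 38 control and 143 CX-5461 UMIs, and 2.76 in those with 20000 or more.

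The RNA of feeders in ES cell droplets was bounded from the fibroblast markers. In ES cells these markers stood at 2.44% of their feeder level in control and 0.85% in CX-5461, and in marker-positive ES cells at 0.96% and 0.69%. At those shares feeder RNA would supply at most 12.8% of the control Btg2 UMIs and 9.44% of the control Cdkn1a UMIs in marker-positive ES cells, and at most 5.87% for the other 8 genes. With that share taken off in both libraries, the log2 ratio of Btg2 went from 3.41 to 3.59 and that of Cdkn1a from 2.05 to 2.14.

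In feeders the response was smaller and less even. Of the 10 genes, 9 were measured (50 UMIs or more, the libraries summed) and 1, Cdkn1a, was at least 2-fold higher in CX-5461, against 8.67% of 7830 genes (4.9% were at least 2-fold lower). Cdkn1a stood at 1234 CPM (1197 to 1273) in control and 2488 CPM (2438 to 2540) in CX-5461 feeders, a log2 ratio of 1.01 (0.96 to 1.07) whose interval spans the limit. Phlda3 went from 256 to 482 CPM (log2 ratio 0.92), Zmat3 from 41.04 to 71.8 CPM (0.81), Btg2 from 209 to 363 CPM (0.80), Sesn2 from 23.6 to 38.3 CPM (0.70) and Ccng1 from 343 to 481 CPM (0.49). Mdm2 stood at 199 CPM (184 to 215) and 206 CPM (192 to 221), a log2 ratio of 0.05 (-0.11 to 0.20) that spans no change. Trp53inp1 was lower in CX-5461, at 69.8 CPM in control and 52.6 CPM in CX-5461, a log2 ratio of -0.41 (-0.69 to -0.13). Sfn, at 24.8 and 19.2 CPM, had a log2 ratio of -0.37 (-0.85 to 0.10), and Sesn1 had only 9 and 8 UMIs. The median log2 ratio was 0.70 over the 9 measured genes, 0.59 with Sesn1 added, and 0.16 over all genes measured in feeders.

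**Figure D2:**
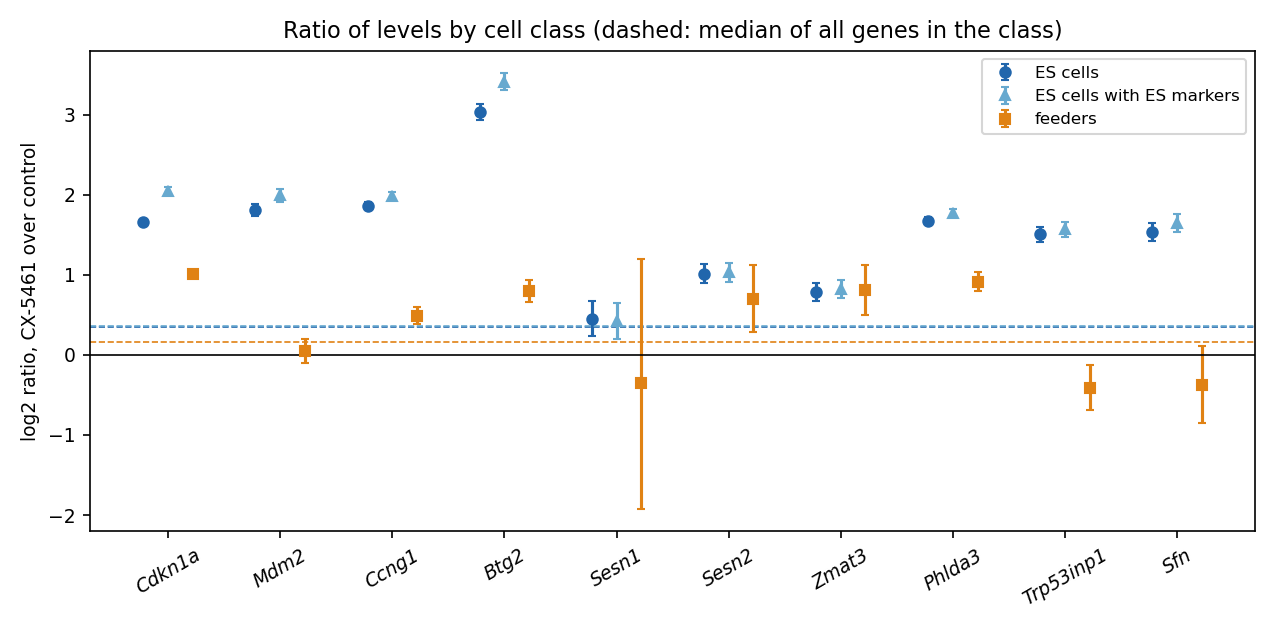
Log2 ratio of the level in CX-5461 over control for each gene, in all ES cells (circles), marker-positive ES cells (triangles) and feeders (squares), with 95% exact conditional intervals; dashed lines mark the median of all genes in each class (0.35, 0.36 and 0.16). The 2 classes lie side by side for Zmat3 and Sesn2 and far apart for Mdm2, Btg2, Trp53inp1 and Sfn.

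The 2 classes were then set against each other. Among the 9 genes over the limits in both, 8 had the larger log2 ratio in ES cells, against 60% of 7269 genes, and in marker-positive ES cells 9 of 9 did, against 62% of 7179 genes. For 7 of the 9 the interval of the difference, ES cells minus feeders, lay above 0. The difference was 2.23 (2.07 to 2.40) for Btg2, 1.91 (1.62 to 2.20) for Trp53inp1, 1.90 (1.43 to 2.37) for Sfn, 1.76 (1.59 to 1.93) for Mdm2, 1.36 (1.25 to 1.48) for Ccng1, 0.76 (0.63 to 0.89) for Phlda3 and 0.64 (0.58 to 0.71) for Cdkn1a. Sesn2 (0.31, -0.10 to 0.73) and Zmat3 (-0.02, -0.34 to 0.30) could not be told apart between the classes at this depth.

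In the control library the classes differed in level. Control feeders held 7.33 times the Cdkn1a share of control ES cells, 10.2 times that of Btg2, 5.31 times that of Mdm2 and 3.84 times that of Ccng1. In CX-5461 the same ratios were 4.70, 2.16, 1.57 and 1.49. All ratios of feeders to ES cells given here are for all ES cells. In marker-positive control ES cells Cdkn1a stood at 126 CPM and Btg2 at 15.7 CPM, against 168 and 20.5 CPM in all control ES cells. Against marker-positive ES cells the control ratios of both genes would be larger. Trp53inp1 and Sfn changed sides: feeders held 2.65 and 1.42 times the ES level in control, and 0.70 and 0.38 times in CX-5461. RNA of ES cells in feeder droplets, read from the ES markers at 7.58% and 5.27% of their ES level, would supply at most 13.9% of the CX-5461 feeder UMIs of Sfn and at most 7.49% of those of Trp53inp1.

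To compare single cells at 1 depth, UMIs were drawn at random until each ES cell had 5000, for the 2520 control and 4355 CX-5461 cells that had as many. The shallower 1106 control and 196 CX-5461 cells did not enter. All 10 genes were then detected in a larger share of CX-5461 cells, against 71.1% of all genes. Cdkn1a was detected in 44.0% (42.1 to 46.0) of control and 87.0% (86.0 to 88.0) of CX-5461 cells, with 59.1% and 95.9% at full depth. Btg2 was detected in 8.53% (7.47 to 9.69) and 53.5% (52.0 to 55.0), with 16.0% and 81.8% at full depth. Ccng1 went from 34.2% to 78.1%, Phlda3 from 36.7% to 75.1%, Mdm2 from 16.5% to 44.9% and Trp53inp1 from 12.7% to 32.0%. The remaining 4 were seen in few cells at this depth: Sfn in 9.09% and 19.2%, Sesn2 in 9.05% and 17.3%, Zmat3 in 10.4% and 15.5%, and Sesn1 in 3.33% (2.67 to 4.11) and 4.02% (3.45 to 4.64), whose intervals overlap. Among marker-positive ES cells (2456 and 4316 thinned cells) 10 of 10 were again detected in a larger share, against 71.2% of all genes. No cell class here lacks these genes, so a share from leaked RNA alone could not be read directly.

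Thinned feeders (134 control, 146 CX-5461) were near the ceiling for some genes. Cdkn1a was detected in 129 of 134 control and 146 of 146 CX-5461 feeders, with a median of 6 and 11.5 UMIs per cell. Btg2 was detected in 60.4% (51.6 to 68.8) and 82.9% (75.8 to 88.6) of feeders, and Trp53inp1 in 29.9% (22.3 to 38.4) and 18.5% (12.6 to 25.8). Mdm2 was detected in 71 of 134 control and 83 of 146 CX-5461 feeders, and the intervals of the shares (44.2 to 61.7% and 48.4 to 65.0%) overlap.

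**Figure D3:**
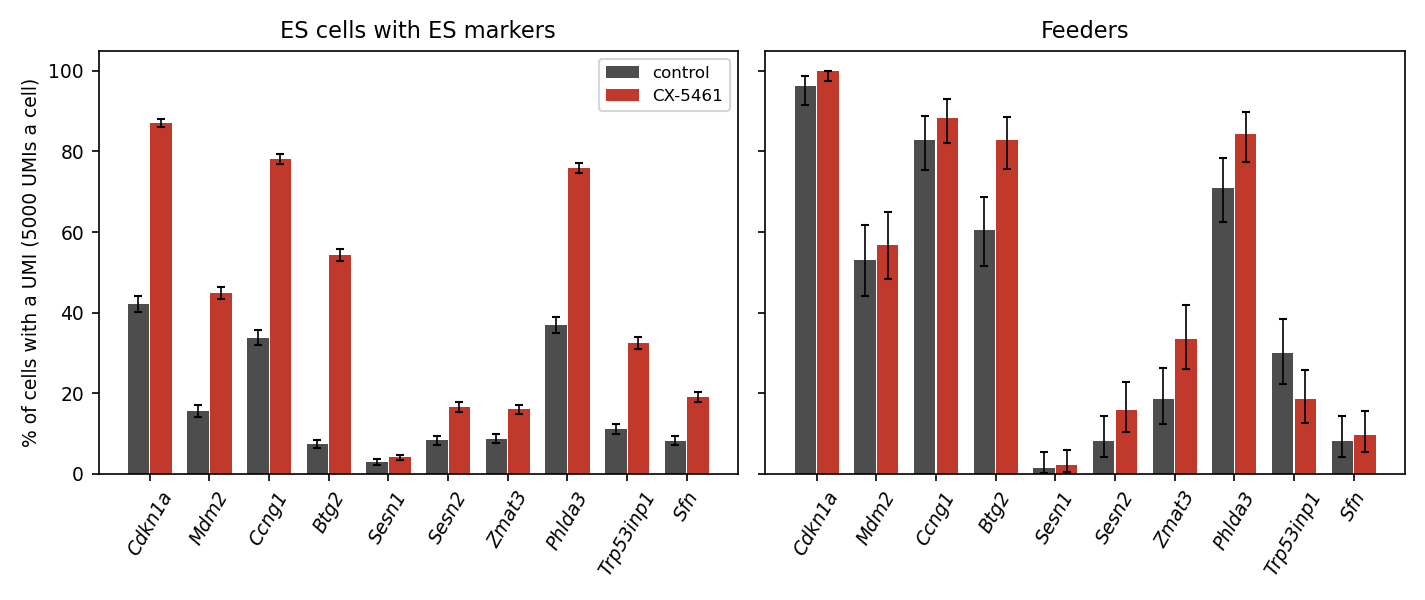
Percentage of cells with at least 1 UMI of each gene after thinning every cell to 5000 UMIs, in marker-positive ES cells (left) and feeders (right) of the control (grey) and CX-5461 (red) libraries; bars start at 0 and error bars are 95% Clopper-Pearson intervals. In ES cells Cdkn1a, Ccng1 and Phlda3 pass 70% in CX-5461, and in feeders Trp53inp1 is the gene with a lower bar in CX-5461.

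The 10 genes were also counted together in each cell. In marker-positive ES cells the median cell held 2 UMIs of the 10 genes in control (quartiles 1 and 3) and 8 in CX-5461 (quartiles 6 and 11), out of 5000. The distributions overlapped little: 1.63% of control cells reached the CX-5461 median and 3.41% of CX-5461 cells were at or below the control median. No UMI of any of the 10 was seen in 16.1% of control and 0.162% of CX-5461 cells, and 5 or more of the 10 genes were detected in 2.57% and 44.2%. Without Cdkn1a the medians were 1 and 5. Feeders, thinned alike, held a median of 12 and 20 UMIs, so the control feeder stood above the CX-5461 ES cell.

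**Figure D4:**
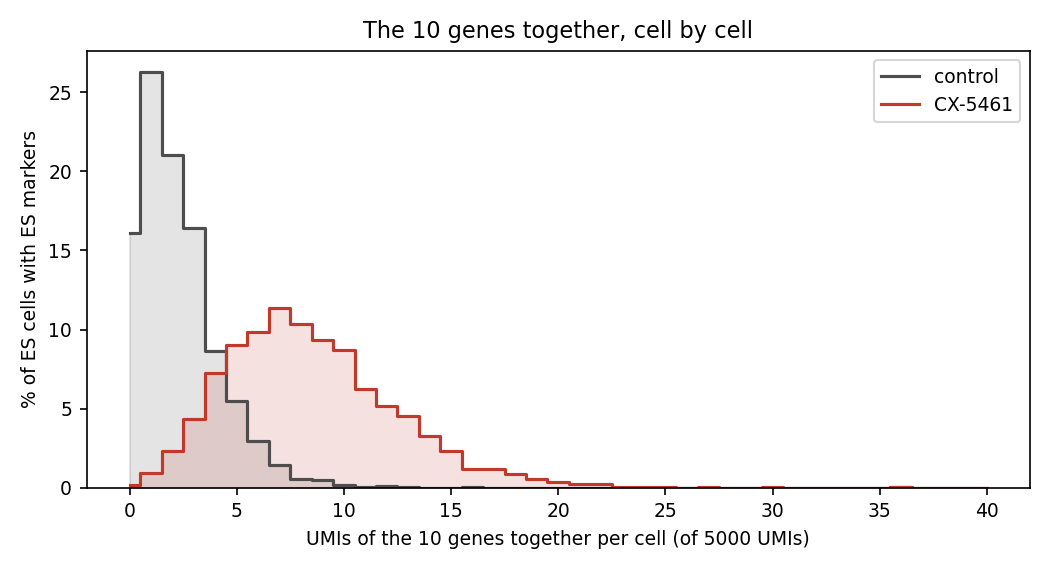
Distribution of the summed UMIs of the 10 genes per marker-positive ES cell after thinning to 5000 UMIs, as a percentage of cells, for control (grey, median 2) and CX-5461 (red, median 8). Each library forms 1 hump, and the CX-5461 hump is shifted as a whole.

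The spread per cell was read as the Fano factor, the variance of the UMIs over their mean, which is 1 for counts that vary by sampling alone. It was larger in CX-5461 for 6 of 10 genes in ES cells (background 51.4%) and for 6 of 10 in marker-positive ES cells (background 54.9%). The Fano factor itself rises with the mean, and the 10 genes had higher means in CX-5461. Read instead as excess CV2, the variance beyond sampling over the squared mean, the spread was larger in CX-5461 for 3 of 10 genes in ES cells (background 47.7%) and for 1 of 10, Sfn, in marker-positive ES cells (background 50.8%). There the excess CV2 of Cdkn1a was 0.68 in control and 0.21 in CX-5461. Cdkn1a showed how much the cells low in ES markers weigh here. In all ES cells its Fano factor was 4.87 in control and 1.84 in CX-5461, with up to 51 UMIs in 1 control cell and 53.5% of the control UMIs in the top 10% of cells. Without those cells it was 1.43 in control and 1.55 in CX-5461, with at most 11 and 13 UMIs in a cell. Sfn had the widest spread of the 10 in CX-5461 marker-positive ES cells, with a Fano factor of 1.00 in control and 1.67 in CX-5461 and at most 2 and 10 UMIs. In all CX-5461 ES cells Sfn had 1.42, with at most 7 UMIs, and Cdkn1a was the widest at 1.84. All and marker-positive ES cells were thinned by separate draws. Differences between them, also in the counts above, therefore hold the noise of the draw. For Mdm2 the Fano factor in marker-positive ES cells was 1.13 and 1.33, for Phlda3 1.19 and 1.27, for Ccng1 1.13 and 1.14, and for Btg2 1.35 and 1.31. Sesn1, Sesn2 and Zmat3 lay between 0.98 and 1.07 in both libraries, close to sampling alone.

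Pairs of the 10 genes had weak correlations from cell to cell. The median Pearson correlation of log(UMIs + 1) over the 45 pairs was 0.028 in CX-5461 ES cells (4355 cells) and 0.032 in control (2520 cells), and 0.027 and 0.034 in marker-positive ES cells. In CX-5461 marker-positive ES cells the widest values were 0.13 for Cdkn1a with Phlda3, 0.12 for Mdm2 with Btg2 and 0.11 for Btg2 with Phlda3. Sfn and Sesn1 had values near 0 with the other genes, between -0.03 and 0.05. Of the 45 pairs 35 were above 0 in CX-5461 ES cells and 36 in control. Each gene was also set against the sum of the other 9, which is less sparse than a single gene. In CX-5461 ES cells these correlations ran from 0.01 for Sfn and 0.02 for Sesn1 to 0.16 for Mdm2, 0.17 for Phlda3 and 0.18 for Btg2. For 8 of 10 genes, not Sfn and Sesn1, they passed the 99th percentile of that gene's correlations with single genes, and in control for 7 of 10. That percentile is over sparser single genes, which favours passing, so the counts carry no weight as a test. These cells share 1 library, a thinned depth and sparse counts that lower every correlation, so the values are a description only and do not show that the genes vary independently. In all control ES cells the pair of Cdkn1a and Btg2 reached 0.25, and in marker-positive control cells 0.10.

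**Figure D5:**
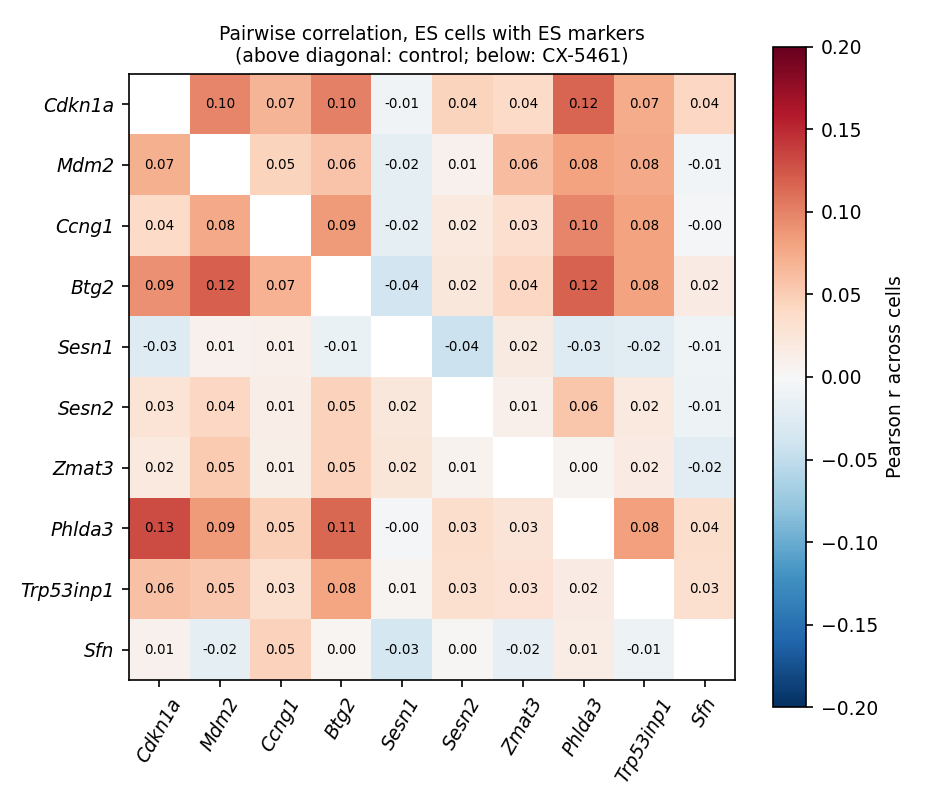
Pearson correlation of log(UMIs + 1) for each pair of the 10 genes across marker-positive ES cells thinned to 5000 UMIs, control above the diagonal (2456 cells) and CX-5461 below it (4316 cells). All values lie between -0.04 and 0.13, the deepest colours among Cdkn1a, Mdm2, Btg2 and Phlda3.

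The summed level of the 10 genes had a correlation of -0.06 with the summed S phase genes and -0.06 with the summed G2/M genes across CX-5461 ES cells. In control ES cells these were -0.29 and -0.22, but -0.11 and 0.05 in marker-positive control cells. With the summed p53 apoptosis targets the value was 0.19 in CX-5461 and 0.10 in control ES cells. With the mitochondrial share it was -0.10 in CX-5461. The 99th percentile of the sum's correlations with single genes was 0.11 in CX-5461. Single genes are sparser than a summed list, so this is not a like background for the values above. The 5 genes outside the list most correlated with the sum across CX-5461 ES cells were 9530053A07Rik (0.26), Dpep3 (0.22), Parn (0.21), Hist1h2ad (0.21) and Krt7 (0.20). Of these, 9530053A07Rik stood at 7.72 CPM in control and 351 CPM in CX-5461, Dpep3, a membrane dipeptidase gene, at 0.303 and 60.1 CPM, and Krt7, a keratin gene, at 0.519 and 174 CPM. Parn, a deadenylase gene, stood at 12.6 and 74.0 CPM. Hist1h2ad, a histone H2A gene, was lower in CX-5461 (621 and 281 CPM), and its correlation with the sum was -0.18 in control. Across marker-positive CX-5461 ES cells 9530053A07Rik and Hist1h2ad were first and second, followed by 1700007K13Rik, Hist1h2af and Hist1h2ab.

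Cells rich in 2-cell embryo (2C) transcripts, an early embryonic programme that a few mES cells express, crossed with these genes. In the 19 CX-5461 ES cells that held 20 or more 2C UMIs, Cdkn1a stood at 250 CPM (192 to 320, 63 UMIs) against 533 CPM in the 4333 CX-5461 cells without one, while Btg2 (171 and 167 CPM), Mdm2 (135 and 131 CPM) and Ccng1 (322 and 321 CPM) were alike within counting error. Phlda3 stood at 223 CPM (168 to 289) against 309 CPM and Sfn at 15.9 CPM (4.33 to 40.7, 4 UMIs) against 50.6 CPM, so Cdkn1a was not the only lower value. Zmat3 stood at 11.9 CPM (2.46 to 34.8, 3 UMIs) against 34.8 CPM. Sesn2 stood at 27.8 CPM (11.2 to 57.3) against 36.7 CPM, and Trp53inp1 at 55.6 CPM (30.4 to 93.4) against 74.8 CPM. For Zmat3, Sesn2 and Trp53inp1 the interval includes the other value, so no difference can be read.

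The rest of the p53 pathway was read from lists, against the same backgrounds as the 10 genes: 19% of all genes at least 2-fold higher and 3.96% lower in ES cells, 19.7% and 3.55% in marker-positive ES cells, and 8.67% and 4.9% in feeders. These lists, too, were chosen with earlier results of these data known. The limits for a measured gene are on the libraries summed, so some genes passed them mostly through the library where they were higher. The list counts are therefore a description and carry no weight as a test. Of the regulators of p53, 14 of 15 were measured in ES cells, 2 were at least 2-fold higher and 0 at least 2-fold lower, near the background, and in marker-positive ES cells the counts were again 2 and 0. The largest log2 ratios were those of Trp73, a p53 family member (0.887 and 7.26 CPM, log2 ratio 3.03), Ppm1d, a phosphatase that turns p53 signalling off (3.09 and 7.60 CPM, 1.30), and Rchy1, a ubiquitin ligase for p53 (0.87). The smallest were those of Ncl (-0.58), Npm1 (-0.42) and Rpl5 (-0.30), genes of nucleolar and ribosomal proteins that can bind MDM2. In feeders 1 of 12 measured, near the background, was at least 2-fold higher, Cdkn2a, the gene of the MDM2 inhibitor ARF (33.4 and 86.3 CPM), Trp53 and Rchy1 followed at 0.16 and 0.14, and Ncl, Rpl5 and Mdm4 were lowest at -0.40, -0.32 and -0.31.

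Of the 11 apoptosis targets of p53, all measured in ES cells, 6 were at least 2-fold higher against a background of 19%, and 0 at least 2-fold lower, with a median log2 ratio of 1.80. In marker-positive ES cells 7 of 11 were at least 2-fold higher against 19.7%. Perp, a membrane protein gene, stood at 7.55 and 110 CPM (log2 ratio 3.86), Fas, a death receptor gene, at 1.51 and 13.1 CPM (3.11), and Pmaip1, which encodes the BH3-only protein NOXA, at 2.32 and 15.5 CPM (2.74). Much of the control RNA of the last pair came from the cells low in ES markers: 3 of the 70 control Fas UMIs and 33 of the 107 control Pmaip1 UMIs were in marker-positive ES cells. There Pmaip1 stood at 0.735 and 15.3 CPM (log2 ratio 4.38), Perp at 5.23 and 109 CPM (4.38) and Fas at 0.0668 and 12.6 CPM (7.55, with an interval from 6.003 to 9.84). The smallest ratios were those of Bid (-0.92), Aen (0.47) and Bax (0.74). In feeders 3 of 11, against 8.67%, were at least 2-fold higher, Fas (1.15), Bbc3 (1.04) and Perp (1.03), and Apaf1, Tnfrsf10b and Ei24 were lowest at 0.13, 0.14 and 0.17. Of the repair and metabolism targets 14 of 19 were at least 2-fold higher in ES cells (background 19%) and 1 lower, and 13 of 18 measured and 1 in marker-positive ES cells. Plk2, Ddit4 and Ephx1 had the largest log2 ratios (2.91, 2.84 and 2.83). In marker-positive ES cells the largest were those of Ephx1 (1.02 and 17.8 CPM, 4.12), Rprm (3.25) and Ddit4 (3.14), with Plk2 next (3.04). In all ES cells Rrm2b, the p53-induced ribonucleotide reductase subunit gene, was at least 2-fold lower (6.99 and 2.80 CPM, -1.32), with Tigar (0.20) and Gadd45a (0.34) next. In feeders 3 of 14 measured, against 8.67%, were at least 2-fold higher, Xpc (1.52), Plk2 (1.07) and Gadd45a (1.04), and the lowest were Tigar (-0.64), Ckap2 (-0.07) and Ddit4 (0.04). Xpc had 12 control and 39 CX-5461 UMIs in feeders. Trp53cor1, counted as higher in all ES cells, had 40 and 166 there. Both passed the limits mostly through CX-5461.

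Close relatives of the 10 genes did not follow them as a group. Of 20 paralogs, 17 were measured in ES cells, 3 were at least 2-fold higher and 1 lower, near the backgrounds of 19% and 3.96%, with a median log2 ratio of 0.16, and in marker-positive ES cells the counts were again 3 and 1. Phlda1 (11.6 and 59.3 CPM, log2 ratio 2.35), Ccng2 (1.51 and 4.64 CPM, 1.62) and Btg1 (8.85 and 17.7 CPM, 1.00) were highest. The lowest were relatives of Sfn, Ywhaz (280 and 83.5 CPM, -1.74), Ywhaq (-0.54) and Ywhae (-0.48). Mdm4, the partner of Mdm2, stood at 37.0 and 64.8 CPM (0.81). In feeders 1 of 16 measured paralogs, near the background, was at least 2-fold higher, Cdkn1c (1.43), followed by Trp53inp2 (0.51) and Tob1 (0.39), and 2 were at least 2-fold lower, Ywhaz (-1.23) and Tob2 (-1.13), followed by Ywhah (-0.35).

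Among cell cycle genes in ES cells, the shares at least 2-fold higher were at or below the background of 19%. Of 16 cyclin and CDK genes 2 were at least 2-fold higher, Rb1 (2.29 and 11.3 CPM) and Rbl2 (1.04 and 2.88 CPM), which encode pocket proteins, with Cdk4 next (0.64), and 1 was lower, Ccnd2 (17.5 and 6.61 CPM), with Cdk6 (-0.99) and Ccnd3 (-0.39) next. Ccnd2 stood at 5.12 and 3.17 CPM in marker-positive ES cells and was not 2-fold lower, which left 2 higher and 0 lower there. Of 37 S phase genes 0 passed 2-fold in either direction, from Cdca7 (-0.95), Hells (-0.89) and Uhrf1 (-0.87) to Prim1 (0.82), Tipin (0.81) and Cdc45 (0.76). Of 48 G2/M genes 3 were at least 2-fold higher, Psrc1 (39.6 and 154 CPM), Gtse1 (1.08) and Hmmr (1.04), and 0 lower, the lowest being Lbr (-0.87), Anp32e (-0.66) and Nek2 (-0.53). The counts for S phase and G2/M genes were the same in marker-positive ES cells. In feeders 5 of 15 measured S phase genes and 8 of 23 measured G2/M genes were at least 2-fold lower, against 4.9% of all genes, led by Hells (-1.60), Uhrf1 (-1.54) and Mcm5 (-1.41), and by Cdca3 (-2.02), Ube2c (-1.86) and Tmpo (-1.77). Highest there were Rfc2 (0.13), Tipin (0.04) and Tyms (-0.10) of S phase, and Psrc1 (1.27), Gtse1 (0.96) and Smc4 (0.10) of G2/M. Of 10 cyclin and CDK genes in feeders 2, against 4.9%, were at least 2-fold lower, Ccnb1 (-1.66) and Ccnb2 (-1.45), followed by Cdk1 (-0.76), and the highest were Cdk4 (0.54), Ccnd2 (0.44) and Ccnd1 (0.32). Some of the lower genes reached the limit of 50 UMIs mostly through control. Mcm5 had 35 control and 15 CX-5461 UMIs in feeders, Tmpo 42 and 14, and Ccnb1 39 and 14. This favours genes lower in CX-5461, so the feeder counts of lower genes carry no weight as a test. RNA of ES cells in feeder droplets, read from the ES markers at 7.58% of their ES level in control and 5.27% in CX-5461, was not taken off these feeder values. Hells, for 1, stood at 275 and 148 CPM in ES cells and at 23.0 and 7.55 CPM in feeders. The part of leaked ES RNA in the lower feeder values was not tested, so they cannot be read as a change in the feeders themselves. Of 19 2C genes 5 were measured in ES cells and all 5 were at least 2-fold higher, Tcstv3 (0.130 and 3.51 CPM, 4.76), Zscan4f (2.30) and Zscan4a (1.80) most and Zscan4d (1.38) and Zscan4c (1.64) least. In marker-positive ES cells 4 were measured and all 4 were at least 2-fold higher. The limit for a measured gene is on the libraries summed, and these 2C genes reached it mostly through CX-5461. In ES cells Tcstv3 had 6 control and 228 CX-5461 UMIs, and Zscan4d had 103 and 376. Such a limit favours 2C genes that are higher in CX-5461, so the counts of 5 and 4 carry no weight as a test. None of the 19 reached 50 UMIs in feeders.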

How the data were processed

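Single cells of untreated and CX-5461-treated mES cultures were captured with the 10x Single Cell 3′ V2 reagents. The deposited files are raw UMI count tables of genes by barcodes, 1 per condition, which the authors made with a published droplet pipeline against mm10; that pipeline aligns with Bowtie, which the authors replaced by HISAT2 to count repeats. The deposited counts sum to 49610287 (3838 barcodes, control) and 69841836 (4922 barcodes, CX-5461). Gene symbols came from GENCODE by gene ID, and 54079 of 54146 IDs matched.

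The study's limits of 500 UMIs and 0.2 mitochondrial left 3767 and 4697 cells, more than the study plotted; its further selection is not given in the sources used here. No doublets were removed. UMIs were summed per class and library and divided by the total (CPM). Intervals are exact Poisson (levels), exact conditional binomial (ratios) and Clopper-Pearson (shares). The difference of log2 ratios has a normal interval. Cells were thinned without replacement to 5000 UMIs (seed 1). "Called" genes passed 2-fold, among genes whose 2 libraries summed to 200 UMIs or more (ES cells) or 50 or more (feeders). With 1 library per condition there was no test. The ratios, intervals, thinning and correlations were tested on simulated data. Python 3.11.15, numpy 2.4.6, scipy 1.17.1 and pandas 2.3.3 were used, with edgeR 4.0.16 (TMM) and DESeq2 1.42.0 (size factors) for alternative scalings only. The members and lists were chosen with earlier results of these data known. Named were the 10 genes, Trp53, the 3 largest and 3 smallest log2 ratios of each list, and the 5 genes most correlated with the summed 10; other names were picked after their values were seen.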

Additional observations from a re-analysis of the deposited data

Results flagged for a closer look

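For 3 of the 10 genes the ratio of CX-5461 to control pointed up in ES cells and down in feeders. With 1 library per condition the difference was not tested over replicates. Trp53inp1 had a log2 ratio of 1.504 (1.41 to 1.60) in ES cells and -0.41 (-0.69 to -0.13) in feeders, and both intervals exclude 0. Sfn had 1.53 (1.42 to 1.64) in ES cells and -0.37 (-0.85 to 0.10) in feeders, where the interval includes 0. Sesn1 had 0.45 (0.23 to 0.68) in ES cells and -0.35 (-1.93 to 1.19) in feeders, from 9 and 8 UMIs, so no direction can be read in feeders.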

How the results depend on the processing

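The count of genes at least 2-fold higher in ES cells was 8 (19% of all genes), and 7 or 8 under the other scalings, floors and cell limits. It was 7 with the TMM factor (12.3% of all genes) and with size factors (11.8%). At a fold of 1.5 it was 9 (35.4%) and at a fold of 3 it was 5 (9.61%). In feeders, where it was 1 (8.67% of all genes), it was 0 under the TMM factor (5.89%), the median-of-ratios size factors (6.55%), the mean of each cell's CPM (8.98%) and a fold of 3 (2.32%), and 5 at a fold of 1.5 (22.8%). With feeders limited to at least 0.5% collagen it was 1 of 6 measured genes (12.4% of all genes). That gene was then Phlda3, with a log2 ratio of 1.09, and Cdkn1a stood at 0.94. The median pairwise correlation of 0.028 lay between 0.022 and 0.039 under the other settings, and at full depth, log-normalized without thinning, it was 0.062. The log2 ratio of Mdm2 in feeders, 0.05, changed sign to -0.12 with the TMM factor, -0.075 with size factors, -0.014 as a mean over cells and -0.69 with feeders limited to at least 0.5% collagen (11 control and 34 CX-5461 cells). No other gene changed direction. The count with a larger Fano factor ranged from 4 to 8, and was 5 with another random seed. The alternative with ES markers was chosen after the data were seen. No paired analysis was possible because the barcodes carry no sample of origin. Depth limits Sesn1 in feeders, where the summed counts are 9 and 8, and the 141 and 146 feeders as a class.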

Other observations

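ES cells with a UMI of Krt15, a keratin gene that no control ES cell held, numbered 716 in CX-5461. In them Btg2 stood at 249 CPM (239 to 259) against 153 CPM (150 to 157) in the 3835 CX-5461 ES cells without one, Mdm2 at 198 CPM against 119 CPM, Zmat3 at 47.0 CPM against 32.7 CPM and Cdkn1a at 575 CPM against 521 CPM. Sesn1 was alike within counting error (7.22 and 7.50 CPM). Median depths were 13520 and 14216 UMIs. The 716 cells were set apart by a gene of the same libraries, so these values are a description.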
